A study of Mus musculus with 12 samples.

Results

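The genes described here are 53 that carry out DNA replication and mitosis, taken by name and not by their level. They comprise 26 genes of DNA replication and 27 genes of mitosis, of 25965 genes listed in each library. All 53 were listed in all 12 libraries and passed the filter on low counts, and 48 of them had reads in every library. A dividing cell first loads the MCM helicase onto origins with CDC6 and CDT1, then switches it on with CDC45 and the GINS complex, and copies its DNA with polymerases held by the PCNA clamp. Cyclin B and CDK1 then drive entry into mitosis, kinetochore and checkpoint proteins attach and count the chromosomes, and CDC20 and UBE2C help destroy the cyclins at exit. In skin, basal keratinocytes of the epidermis and outer root sheath divide to renew the tissue, while stem cells of the follicle bulge are known to rest for long periods.

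RNA was sequenced in 12 mouse skin libraries that form 6 groups of 2, from 3 kinds of cells. Hair follicle stem cells (HFSC) comprised knockout libraries L95 and L97, with genotype EGFR_delta_LGR5, and control libraries L136 and L94. Sorted outer root sheath cells (ORS) comprised knockouts E358 and E359, with genotype EGFR_delta_ep, and controls E341 and E344. Sorted cells abbreviated IFE comprised knockouts E358 and E359, also EGFR_delta_ep, and controls E341 and E360. All 6 control libraries carried the genotype EGFR_fl_fl. EGFR is the receptor for epidermal growth factor, and the design set its knockout against controls. The labels give no age or hair cycle stage. ORS controls E341, with 29 Xist and 11873 Y-linked reads, and E344, with 41490 Xist and 2 Y-linked reads, differ in sex and so come from different animals. Whether the 2 libraries of each other group are different animals is not stated, so p-values rest on a spread between samples that may be technical.

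Reads in genes per library numbered 11526521 to 16829286 in HFSC, 24663911 to 27666954 in ORS and 11412781 to 13175759 in IFE. Egfr had 5460 and 5290 reads in the HFSC libraries labelled knockout, against 4398 and 6545 reads in HFSC controls. It had 100 and 1463 reads in ORS knockouts E358 and E359, against 7781 and 6424 reads in ORS controls. It had 0 and 4 reads in IFE knockouts, against 1376 and 1742 reads in IFE controls. Per 1000000 reads in genes, after TMM scaling between libraries (CPM), Egfr was at 334.9 and 330.1 in the HFSC libraries labelled knockout, against 389.3 and 430.8 in HFSC controls. Most Egfr RNA was thus kept in the HFSC libraries labelled knockout, which are called by their label only. Xist, a transcript of female cells, was high in both knockouts and low in both controls in IFE, the reverse in HFSC, and low in ORS control E341 alone among ORS libraries. Sex and genotype therefore cannot be told apart within IFE or within HFSC. The bulge marker Cd34 had 1330 to 2150 CPM in HFSC, 0 to 5.88 CPM in ORS and 0 in all 4 IFE libraries. The 9 bulge markers summed to 26020 to 42870 CPM in HFSC, 7807 to 10100 CPM in ORS and 5235 to 7176 CPM in IFE. Of these, Nfatc1 went the other way, with 198 to 247 CPM in HFSC and 409 to 554 CPM in ORS, as did Tcf7l1, with 17.1 to 39.4 CPM in HFSC and 64.6 to 107 CPM in ORS. Lgr5 had 132 to 357 CPM in HFSC and 340.6 to 494.9 CPM in ORS. The epidermal keratin Krt10 had 30.6 to 77.7 CPM in HFSC, 27.5 to 65.6 CPM in ORS and 648.9 to 1404 CPM in IFE. The 8 outer root sheath markers summed to 20570 to 22220 CPM in HFSC, 12440 to 12550 CPM in ORS and 20060 to 26420 CPM in IFE. Krt5, Krt14 and Cxcl14 were lower in every ORS library than in any HFSC or IFE library. Krt6a and Krt75 were lower in every ORS library than in any HFSC library. Sostdc1 was higher in ORS than in all HFSC and IFE libraries, Sox9 than in all IFE libraries and Krt17 than in all HFSC libraries. The labels spell IFE out as inner root sheath, and the abbreviation is used here. The interfollicular epidermis markers Krt1, Krtdap, Ly6d and Ly6a, like Krt10, were higher in every IFE library than in any ORS or HFSC library. Krtdap had 4381 to 5065 CPM in IFE, 93.26 to 236.6 CPM in ORS and 38.64 to 81.95 CPM in HFSC. Sbsn of that list was highest in HFSC, and Lor and Flg overlapped between IFE and ORS. By most of that list, IFE here reads as interfollicular epidermis. The 7 inner root sheath markers found summed to 437 to 607 CPM in HFSC, 301 to 383 CPM in ORS and 875 to 1049 CPM in IFE. Gata3 made up most of that sum, at 857 to 1010 CPM in IFE, while the keratins Krt25 and Krt28 were at 0 in all 4 IFE libraries and Krt71 reached 6.82 CPM there.

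The division genes were lowest in HFSC and highest in ORS. The mean over the 27 mitosis members of log2(CPM + 0.5) was 1.94 and 4.80 in the HFSC libraries labelled knockout L95 and L97, and 3.95 and 2.77 in HFSC controls L136 and L94. It was 7.71 and 7.59 in ORS knockouts E358 and E359, and 7.56 and 7.49 in ORS controls E341 and E344. It was 7.01 and 7.07 in IFE knockouts E358 and E359, and 6.81 and 7.13 in IFE controls E341 and E360. The 3 cell types thus did not overlap, and the 4 HFSC libraries spread far more than the other 8. The mean over the 26 replication members was 3.54 and 4.81 in HFSC labelled knockout, and 4.65 and 3.64 in HFSC controls. It was 6.52 and 6.85 in ORS knockouts and 6.79 and 6.75 in ORS controls. It was 5.96 and 6.15 in IFE knockouts and 5.80 and 5.78 in IFE controls. The order was the same for replication as for mitosis, with a smaller distance to HFSC. In bulk libraries, fewer dividing cells and less RNA per dividing cell cannot be told apart.

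**Figure D1:**
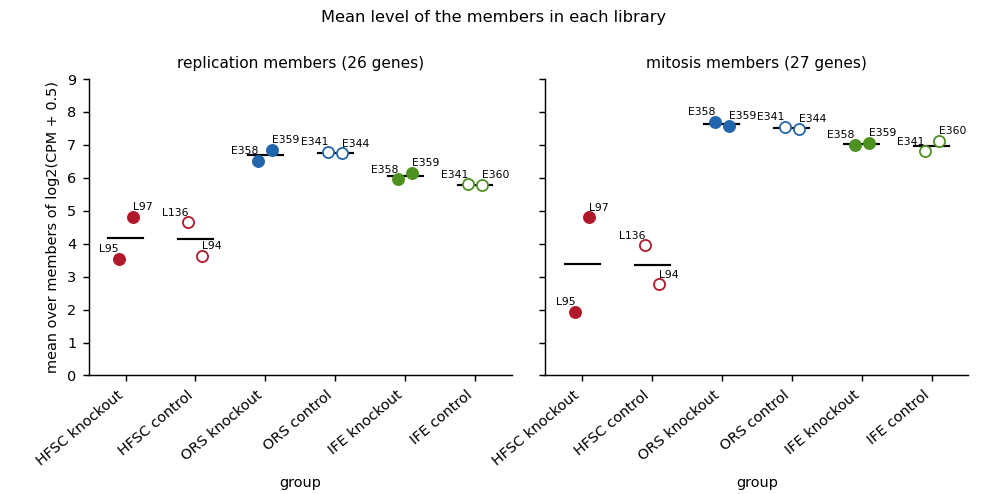
Mean over the 26 replication members (left) and the 27 mitosis members (right) of log2(CPM + 0.5) in each library, by group. Each point is 1 library (filled knockout, open control), and the bar is the mean of the 2. HFSC libraries lie below all ORS and IFE libraries, between 1.94 and 4.80 for mitosis, and ORS libraries lie above all IFE libraries.

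Gene by gene, 52 of 53 members were lower in HFSC than in ORS (adjusted p under 0.05, limma over 15251 genes), and 0 were higher. Among all genes, 14.4% were called lower and 14.3% higher in that comparison. The median log2 fold change was -4.25 over the mitosis members and -2.37 over the replication members, against 0.03 over all genes. Against IFE, 49 of 53 members were lower in HFSC and 0 were higher, beside 16.1% of all genes called lower and 19.9% called higher. The median log2 fold change there was -3.48 over the mitosis members, -1.63 over the replication members and 0.18 over all genes. All 4 HFSC libraries lay below all 4 ORS libraries for 51 of 53 members, against 17% of all genes. All 4 HFSC libraries lay below all 4 IFE libraries for 43 of 53 members, against 15.7% of all genes. The HFSC libraries carry their own number series and another deletion line than ORS and IFE, so cell type and experiment cannot be told apart in these comparisons.

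ORS exceeded IFE by less. Of 53 members, 7 were called higher in ORS and 0 lower, beside 10.6% of all genes called higher and 8.82% called lower. All 7 called in this main fit belong to replication, and 50 of 53 members had a fitted value above 0. The median log2 fold change was 0.71 over the replication members and 0.58 over the mitosis members, against 0.12 over all genes. All 4 ORS libraries lay above all 4 IFE libraries for 21 of 53 members, against 11.1% of all genes. The deposited data tag all 4 IFE libraries FC7 and all 4 ORS libraries FC8, and the labels do not explain these tags. Cell type and whatever the tags mark cannot be told apart in this comparison. The count of 7 was 2 without ORS knockout E359, 3 without ORS control E344 and 4 without IFE control E341. It was 18 when ORS and IFE were fitted apart from HFSC, beside 2279 of 14449 genes tested that were called in either direction. Among the 18 were the mitosis members Mki67, Top2a, Cenpf, Cenpe, Kif23, Nusap1, Ccnb1, Bub1 and Bub1b. That only replication members were called thus depends on the fit. It held with a pseudocount of 2, where the same 7 were called. It also failed with limma-voom, with a fixed replicate block and on the values as deposited, and the cause was not tested. Reads in genes were 50.6 to 54.6% of the library total in ORS but 27.8 to 29.6% in IFE and 26.9 to 28.9% in HFSC. Per library total, as deposited, the median of all genes therefore shifted to 0.86 for ORS against IFE and -0.74 for HFSC against ORS. On that scale, 45 members were called higher in ORS than in IFE, with medians of 1.67 for replication and 1.53 for mitosis, beside 8372 of 15251 genes called in either direction, and all 53 members had a fitted value above 0.

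**Figure D2:**
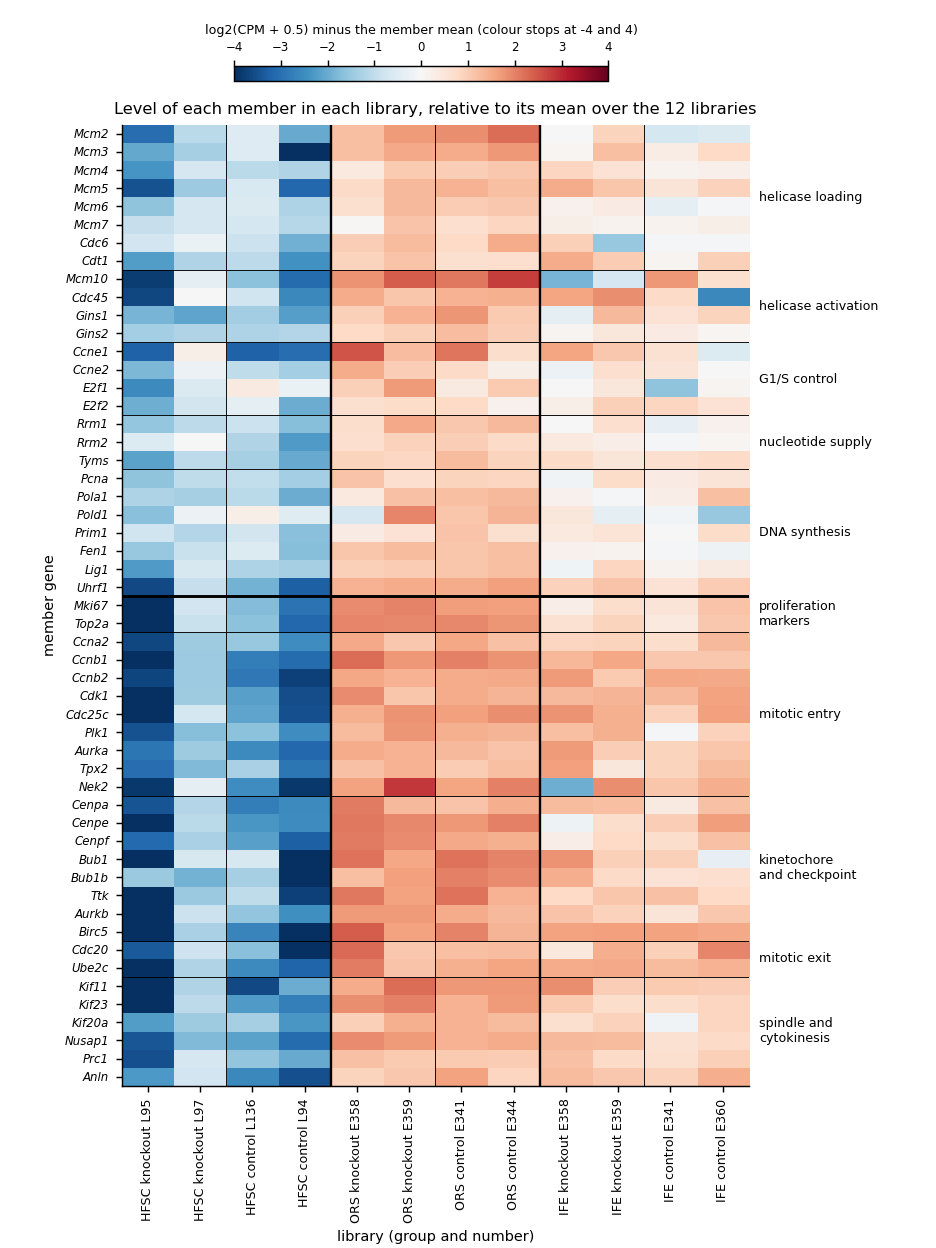
Level of each of the 53 members (rows, by role) in each of the 12 libraries (columns), as log2(CPM + 0.5) minus the member's mean over the 12 libraries. Nearly all rows are blue in HFSC and red in ORS, with IFE paler. In L95, 35 of 53 members were at their lowest among the 4 HFSC libraries.

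The helicase loading members are the 6 MCM subunits and their loaders Cdc6 and Cdt1. All 8 were lower in HFSC than in ORS, and 7 of 8 were lower in HFSC than in IFE, all but Cdc6. Mcm6, a helicase subunit (chromosome 1, 128331591 to 128359656, mm10), had 62.6 and 120.4 CPM in HFSC labelled knockout and 127 and 81.4 CPM in HFSC controls. It had 300.2 and 468 CPM in ORS knockouts and 385 and 405 CPM in ORS controls. It had 213 and 241 CPM in IFE knockouts and 145 and 183 CPM in IFE controls. No HFSC library reached any IFE library, and no IFE library reached any ORS library. Its log2 fold change was -2.03 in HFSC against ORS (SE 0.23, adjusted p = 5.04e-05), -1.03 in HFSC against IFE (SE 0.23, adjusted p = 0.00428) and 1.0 in ORS against IFE (SE 0.23, adjusted p = 0.00983). The last value was 0.81 with adjusted p = 0.0532 without ORS knockout E359.

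Mcm2, another helicase subunit (chromosome 6, 88883475 to 88898780), had 6.87 and 28.2 CPM in HFSC labelled knockout and 42.1 and 14.5 CPM in HFSC controls. It had 138.5 and 198 CPM in ORS knockouts and 218 and 281 CPM in ORS controls. It had 60.6 and 112 CPM in IFE knockouts and 36.9 and 39.8 CPM in IFE controls. HFSC control L136 thus lay above both IFE controls, while ORS stood clear of both others. The log2 fold change was 1.84 in ORS against IFE (SE 0.43, adjusted p = 0.011), -3.40 in HFSC against ORS (SE 0.43) and -1.56 in HFSC against IFE (SE 0.43), the last with adjusted p = 0.0139 and lost, with adjusted p = 0.0654 at most, without L95 and without L94. The ORS difference lost its call without ORS knockout E359 (1.68, adjusted p = 0.0552) and without ORS control E344 (1.75, adjusted p = 0.051). Cdc6, which brings the helicase to the origin, had 8.16 and 11.9 CPM in HFSC labelled knockout and 7.70 and 3.42 CPM in HFSC controls. It had 28.8 and 34.9 CPM in ORS knockouts and 25.1 and 40.6 CPM in ORS controls, and 28.2, 4.71, 13.7 and 13.7 CPM in the 4 IFE libraries, knockouts first. HFSC and IFE overlapped only through IFE knockout E359, and their difference was not called (-0.78, SE 0.53, adjusted p = 0.275). Without IFE knockout E359 it was -1.40 with adjusted p = 0.0195. The other 5 loading members had log2 fold changes between -3.59 (Mcm3) and -1.55 (Mcm7) in HFSC against ORS, all called.

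The helicase activation members are Mcm10, Cdc45, Gins1 and Gins2. All 4 were lower in HFSC than in ORS, and 3 of 4 were lower in HFSC than in IFE. Leaving out an HFSC or IFE library moved the log2 fold change of Mcm10 in HFSC against IFE between -3.04 and -1.34. Leaving out an HFSC or ORS library moved that of Cdc45 in HFSC against ORS between -4.01 and -2.20. Neither call held in every such fit. Mcm10, which helps start the fork (chromosome 2, 4989714 to 5012791), had 0 and 4.80 CPM in HFSC labelled knockout and 1.77 and 0.329 CPM in HFSC controls. It had 24 and 37 CPM in ORS knockouts and 29.5 and 47.2 CPM in ORS controls. It had 1.43 and 3.91 CPM in IFE knockouts and 22.7 and 10.4 CPM in IFE controls. The IFE groups were apart, and the IFE knockouts lay within the HFSC range. A count of 0 in L95 allows a level of up to 0.184 CPM, for counting error only. Mcm10 was higher in ORS than in IFE (log2 fold change 2.31, SE 0.73, adjusted p = 0.0454), and the call was lost in 7 of the 8 fits that left out an ORS or IFE library. Cdc45, the activating subunit, had 0.675 and 13.9 CPM in HFSC labelled knockout and 7.97 and 1.97 CPM in HFSC controls. It had 40.7 and 30.8 CPM in ORS knockouts and 37.9 and 38.7 CPM in ORS controls, and 43.2 and 52.9 CPM in IFE knockouts against 24.5 and 1.96 CPM in IFE controls. IFE control E360 sat as low as HFSC control L94. The difference of HFSC against IFE was -2.17 (SE 0.83, adjusted p = 0.0605), and -3.00 with adjusted p = 0.0135 without IFE control E360. Gins2, a subunit of the GINS complex, was tight within each cell type, at 36.6 to 41.9 CPM in HFSC, 166 to 224 CPM in ORS and 100.5 to 130 CPM in IFE. Its log2 fold change was 0.75 in ORS against IFE (SE 0.17, adjusted p = 0.00905).

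The G1/S control members are the cyclins Ccne1 and Ccne2, which partner CDK2, and the transcription factors E2f1 and E2f2. All 4 were lower in HFSC than in ORS, and 3 of 4 in HFSC than in IFE. The call of E2f1 against ORS was lost in 7 of the 8 fits that left out an HFSC or ORS library. E2f1 was the exception against IFE, with 0.797 and 4.55 CPM in HFSC labelled knockout and 9.21 and 5.79 CPM in HFSC controls. It had 14.2 and 24.3 CPM in ORS knockouts and 9.18 and 15.2 CPM in ORS controls, and 7.21, 9.82, 2.01 and 7.59 CPM in the 4 IFE libraries, knockouts first. HFSC and IFE overlapped, with a log2 fold change of -0.50 and a 95% interval of -1.79 to 0.78. Ccne1 had 0 and 4.99 CPM in HFSC labelled knockout and 0 and 0.0658 CPM in HFSC controls, against 7.03 to 26.1 CPM over ORS and 2.68 to 13.4 CPM over IFE. In HFSC it was thus detected almost entirely in L97. None of the 4 was called between ORS and IFE.

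The nucleotide supply members make the building blocks of DNA: Rrm1 and Rrm2 form ribonucleotide reductase, and Tyms makes thymidylate. All 3 were lower in HFSC than in ORS and in IFE. Rrm2 (chromosome 12, 24708241 to 24714146) had 170.3 and 251 CPM in HFSC labelled knockout and 106 and 51.0 CPM in HFSC controls. It had 397 and 464 CPM in ORS knockouts and 488 and 421 CPM in ORS controls, and 321 and 298 CPM in IFE knockouts against 235 and 262 CPM in IFE controls. L97 alone among HFSC libraries reached the IFE range. Its log2 fold change was -1.83 in HFSC against ORS (SE 0.21) and -1.16 in HFSC against IFE (SE 0.21, adjusted p = 0.00113), both called. It was 0.67 in ORS against IFE (SE 0.21, adjusted p = 0.0455), a call lost in all 8 fits that left out an ORS or IFE library, with values of 0.58 to 0.72 and adjusted p = 0.0718 to 0.147. Rrm1 had a log2 fold change of 1.01 in ORS against IFE (SE 0.25, adjusted p = 0.0156), and the call was lost in 4 of the 8 fits that left out an ORS or IFE library, with adjusted p = 0.079 without ORS knockout E359.

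The DNA synthesis members are the clamp Pcna, the polymerase and primase subunits Pola1, Pold1 and Prim1, the flap nuclease Fen1, the ligase Lig1, and Uhrf1, which passes DNA methylation on to the new strand. Of these 7, 6 were lower in HFSC than in each of the other cell types, all but Pold1. Pcna had 23.9 and 36.2 CPM in HFSC labelled knockout and 37.3 and 28.8 CPM in HFSC controls. It had 163 and 119 CPM in ORS knockouts and 139 and 135 CPM in ORS controls, and 67.4 and 125 CPM in IFE knockouts against 92.9 and 106 CPM in IFE controls. HFSC stood clear of both others, while ORS knockout E359 lay below IFE knockout E359. The log2 fold change of Pcna was -2.13 in HFSC against ORS (SE 0.24) and -1.60 in HFSC against IFE (SE 0.24, adjusted p = 0.000294). Fen1, which trims the lagging strand, had 33.1 and 51.8 CPM in HFSC labelled knockout and 65.2 and 29.0 CPM in HFSC controls, 206 to 233 CPM over ORS and 84 to 107 CPM over IFE. It was higher in ORS than in IFE by 1.16 on the log2 scale (SE 0.25, adjusted p = 0.0062), and Fen1 and Gins2 kept that call whichever ORS or IFE library was left out. Uhrf1 fell furthest of the 7, by 3.92 on the log2 scale in HFSC against ORS, at 9.26 to 62.0 CPM in HFSC, 309 to 368 CPM in ORS and 174 to 261 CPM in IFE. Pold1 varied within cell types, at 5.77 to 22.8 CPM in HFSC, 12.1 to 76.3 CPM in ORS and 6.43 to 26.9 CPM in IFE. Its difference of HFSC against IFE was -0.15 with a 95% interval of -1.42 to 1.12.

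Mitosis members were farther apart between HFSC and the rest than replication members. All 27 were called lower in HFSC than in ORS and all 27 lower in HFSC than in IFE. Against IFE, the calls of Nek2 and Bub1 depended on which library was left out. The log2 fold change then spanned -4.21 to -2.29 for Nek2 and -4.92 to -2.39 for Bub1. Nek2 was the only mitosis member whose HFSC and IFE libraries overlapped. None of the 27 was called between ORS and IFE in the main fit, unlike in the fit apart from HFSC. Their log2 fold changes were -5.27 to -3.02 in HFSC against ORS and -5.04 to -2.40 in HFSC against IFE. The replication members spanned -4.50 to -1.48 and -3.33 to -0.15 in the same comparisons.

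**Figure D3:**
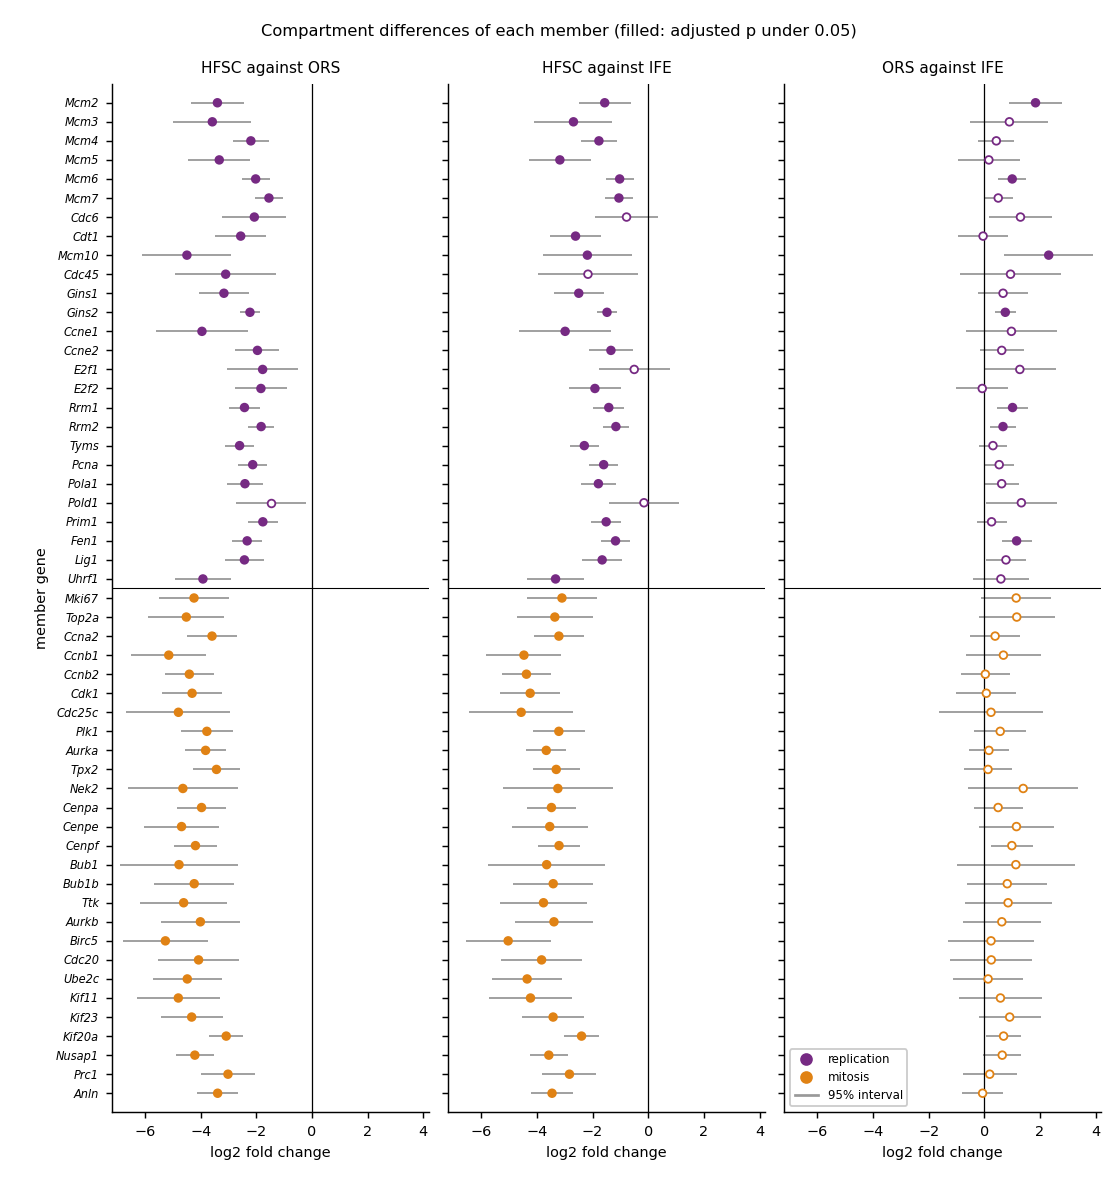
Log2 fold change of each of the 53 members with its 95% interval in HFSC against ORS, HFSC against IFE and ORS against IFE (1 row per gene, replication above mitosis). Filled points have an adjusted p under 0.05. All 27 mitosis members lie at or below -2.40 in both HFSC comparisons, and 7 replication members are filled in ORS against IFE.

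Mki67 and Top2a are the usual markers of dividing cells. Mki67, which coats mitotic chromosomes (chromosome 7, 135689788 to 135716379), had 12.7 and 159 CPM in HFSC labelled knockout and 80.6 and 34.6 CPM in HFSC controls. It had 1002 and 1073 CPM in ORS knockouts and 857 and 840.2 CPM in ORS controls. It had 322 and 437 CPM in IFE knockouts and 390.1 and 591 CPM in IFE controls. The highest HFSC library, L97, stayed below the lowest IFE library. HFSC averaged 71.8 ± 64.9 CPM, ORS 943 ± 113 CPM and IFE 435 ± 114 CPM (SD, n = 4 each), and HFSC was at 7.62% of ORS and 16.5% of IFE. Top2a, the topoisomerase that untangles chromosomes (chromosome 11, 98992943 to 99024189), had 9.81 and 158 CPM in HFSC labelled knockout and 92.9 and 33.0 CPM in HFSC controls. It had 1148 and 1107 CPM in ORS knockouts and 1119 and 996 CPM in ORS controls, and 447 and 541 CPM in IFE knockouts against 380.2 and 613 CPM in IFE controls. The log2 fold change of ORS against IFE was 1.14 for Mki67 (SE 0.57, adjusted p = 0.192) and 1.16 for Top2a (SE 0.63, adjusted p = 0.228). These SE rest on 1 spread shared by all 6 groups, the HFSC groups included. For both genes all 4 ORS libraries lay above all 4 IFE libraries, and fitted apart from HFSC the adjusted p was 0.00104 for Mki67 and 0.000866 for Top2a.

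The 9 mitotic entry members include cyclins A and B, their kinase Cdk1, its activating phosphatase Cdc25c, and the kinases Plk1, Aurka and Nek2. Ccnb1 (chromosome 13, 100778650 to 100786570) had 1.04 and 24.9 CPM in HFSC labelled knockout and 9.74 and 7.83 CPM in HFSC controls. It had 331 and 232 CPM in ORS knockouts and 286 and 241 CPM in ORS controls, and 176 and 206 CPM in IFE knockouts against 149 and 147 CPM in IFE controls. No HFSC library came near the other 8. The log2 fold change of Ccnb1 was -5.15 in HFSC against ORS (SE 0.62, adjusted p = 7.53e-05) and -4.47 in HFSC against IFE (SE 0.62, adjusted p = 0.000148). Without L95 these were -4.14 and -3.46, and without L97 -6.16 and -5.48. Cdk1, the mitotic kinase, had 4.91 and 38.6 CPM in HFSC labelled knockout and 22.6 and 8.56 CPM in HFSC controls. It had 385 and 224 CPM in ORS knockouts and 294 and 271 CPM in ORS controls, and 258 and 268 CPM in IFE knockouts against 258 and 317 CPM in IFE controls. ORS and IFE overlapped, with a log2 fold change of 0.07 and a 95% interval of -1.01 to 1.15. Ccnb2 likewise had 143 to 160.3 CPM in ORS and 114 to 178 CPM in IFE, against 3.62 to 19.6 CPM in HFSC.

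Cdc25c had 0 and 21.3 CPM in HFSC labelled knockout and 7.79 and 2.63 CPM in HFSC controls, against 94.8 to 130 CPM over ORS and 67.7 to 123 CPM over IFE. Its log2 fold change was -4.81 in HFSC against ORS (SE 0.86) and -4.57 in HFSC against IFE (SE 0.86), and -3.44 and -3.21 without L95. Plk1, which triggers several steps of mitosis, had 1.59 and 6.74 CPM in HFSC labelled knockout and 6.99 and 3.69 CPM in HFSC controls, against 55.9 to 79.7 CPM over ORS and 22.5 to 62.2 CPM over IFE. Nek2, a centrosome kinase, had 0 reads in L95 and L94 and 5.12 CPM in L97. The 9 entry members had median log2 fold changes of -4.31 in HFSC against ORS and -3.67 in HFSC against IFE, but 0.24 in ORS against IFE.

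The 8 kinetochore and checkpoint members hold the centromeric histone Cenpa, the kinetochore proteins Cenpe and Cenpf, the checkpoint kinases Bub1 and Ttk with Bub1b, and Aurkb with its partner Birc5. Birc5, or survivin (chromosome 11, 117849251 to 117855743), had 0.981 and 29.1 CPM in HFSC labelled knockout and 11 and 3.42 CPM in HFSC controls. It had 383 and 219 CPM in ORS knockouts and 285 and 184 CPM in ORS controls, and 219.5 and 225 CPM in IFE knockouts against 222 and 207 CPM in IFE controls. HFSC stood apart, and ORS spanned the IFE values. Birc5 had the largest fitted difference of the 53 members, at -5.27 in HFSC against ORS (SE 0.70, adjusted p = 0.000165) and -5.04 in HFSC against IFE (SE 0.70, adjusted p = 0.000159). Without L95 these were -4.19 and -3.96, and without L97 -6.35 and -6.12. Aurkb, the kinase that corrects attachments, had 1.29 and 30.9 CPM in HFSC labelled knockout and 18.7 and 9.87 CPM in HFSC controls, against 138 to 186 CPM over ORS and 81.7 to 125 CPM over IFE. Bub1 had 0 and 16.2 CPM in HFSC labelled knockout and 16 and 0.856 CPM in HFSC controls, against 75.2 to 117 CPM over ORS and 20.1 to 90.3 CPM over IFE. Cenpe, the kinetochore motor, had 1.96 and 38.5 CPM in HFSC labelled knockout and 15.9 and 13.9 CPM in HFSC controls, 274 to 356 CPM over ORS and 71.7 to 263 CPM over IFE. The list's median log2 fold change was -4.43 in HFSC against ORS, -3.51 in HFSC against IFE and 0.84 in ORS against IFE.

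For mitotic exit, Cdc20, the activator of the anaphase-promoting complex, had 2.58 and 17.3 CPM in HFSC labelled knockout and 9.29 and 0.724 CPM in HFSC controls, against 65.7 to 151 CPM over ORS and 41.3 to 121 CPM over IFE. Ube2c, the ubiquitin-conjugating enzyme of that complex, had 3.44 and 48.5 CPM in HFSC labelled knockout and 18.7 and 11.6 CPM in HFSC controls. It had 465 and 245 CPM in ORS knockouts and 298 and 333 CPM in ORS controls, and 310.3 and 318 CPM in IFE knockouts against 271 and 291 CPM in IFE controls. ORS thus straddled IFE, with a log2 fold change of 0.13 (SE 0.57, adjusted p = 0.914), while its log2 fold change was -4.49 in HFSC against ORS (SE 0.57) and -4.35 in HFSC against IFE (SE 0.57). Among the 6 spindle and cytokinesis members, Kif11, the motor that separates the poles (chromosome 19, 37376403 to 37421859), had 0.859 and 22.0 CPM in HFSC labelled knockout and 3.72 and 12.6 CPM in HFSC controls. It had 144 to 242 CPM over ORS and 102 to 187 CPM over IFE, and its log2 fold change was -4.81 in HFSC against ORS (SE 0.68, adjusted p = 0.000252). Kif20a and Prc1, which act in the midzone, had the smallest differences of the mitosis members, at -3.09 and -3.02 in HFSC against ORS. Anln, a scaffold of the cleavage furrow, was close between ORS and IFE, with a log2 fold change of -0.06 and a 95% interval of -0.81 to 0.68, but 0.90 (adjusted p = 0.0346) on the deposited scale.

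Since the members moved together, their promoters were read for 3 elements of cell cycle genes: the E2F site (TTTCCCGC, TTTGGCGC, TTTCGCGC or TTTGCCGC), the CHR element TTTGAA of mitotic genes, and the CCAAT box, each on both strands. RefSeq promoters (GRCm38.p6) were found for 44 members, 22 of each kind, and the 250 bases before the start were searched. An E2F site was in 5 of 22 replication promoters (22.7%), 1 of 22 mitosis promoters (4.55%) and 3.32% of 10135 promoters of genes tested. A CHR element was in 3 of 22 replication promoters (13.6%), 7 of 22 mitosis promoters (31.8%) and 10.4% of those genes. A CCAAT box was in 14 of 22 replication promoters (63.6%), 19 of 22 mitosis promoters (86.4%) and 36.4% of those genes, and a pair or more in 27.3%, 54.5% and 13.2%. These matches are a description and not sites shown to be bound. Printed 5′ to 3′ on the gene's strand are the last 150 bases before the start of a replication gene, Mcm6, and of 3 mitosis genes whose HFSC values are given above. Capitals mark the elements, and in Mcm6 the first capital run is 2 overlapping E2F sites, the second of them on the other strand.
Mcm6, chr1:128359706-128359855, minus strand: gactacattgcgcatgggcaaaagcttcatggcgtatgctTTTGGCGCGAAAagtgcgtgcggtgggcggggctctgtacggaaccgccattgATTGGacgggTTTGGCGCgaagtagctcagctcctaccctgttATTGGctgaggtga
Cdk1, chr10:69352913-69353062, minus strand: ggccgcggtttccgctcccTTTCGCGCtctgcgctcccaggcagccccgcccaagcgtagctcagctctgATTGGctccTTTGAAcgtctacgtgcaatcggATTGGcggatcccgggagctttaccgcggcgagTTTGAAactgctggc
Top2a, chr11:99024190-99024339, minus strand: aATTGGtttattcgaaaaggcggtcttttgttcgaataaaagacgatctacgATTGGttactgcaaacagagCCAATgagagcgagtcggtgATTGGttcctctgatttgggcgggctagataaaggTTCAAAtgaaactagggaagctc
Ube2c, chr2:164769779-164769928, plus strand: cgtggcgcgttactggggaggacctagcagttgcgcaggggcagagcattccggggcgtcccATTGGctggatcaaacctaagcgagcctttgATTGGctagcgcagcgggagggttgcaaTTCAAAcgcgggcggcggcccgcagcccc
Cdk1 holds an E2F site, and CHR elements and CCAAT boxes beside it. Top2a and Ube2c show CCAAT boxes spaced before a CHR element, and Mcm6 shows E2F sites and CCAAT boxes with no CHR element in this window. The printed promoters are examples that hold the elements and do not stand for all members. Birc5 held none of these elements in the bases searched, and Ccnb1, Plk1 and Aurka held CCAAT boxes but no E2F site or CHR element.

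The 4 HFSC libraries differed among themselves more in these genes than over all genes. Between L95 and L97 the median absolute log2 difference was 2.86 over the mitosis members and 1.05 over the replication members, against 0.36 over all genes. Between HFSC controls L136 and L94 it was 0.99 over mitosis and 0.88 over replication members, against 0.38 over all genes. In ORS and IFE the same gap between the 2 libraries of a group was 0.17 to 0.44 over either list, against 0.36 to 0.56 over all genes. L97 exceeded L95 in 26 of 27 mitosis members, all but Bub1b, and in 23 of 26 replication members. Likewise L136 exceeded L94 in 49 of 53 members. L97 was the highest of the 4 HFSC libraries for 22 of 27 mitosis members, and both controls lay between L95 and L97 for 16 of 27. The sum of the 27 mitosis members was 162 and 1041 CPM in L95 and L97, and 589 and 287 CPM in L136 and L94. The 63 other mitosis genes spread alike, with mean levels of 1.98 and 4.22 in L95 and L97 and of 3.60 and 2.57 in L136 and L94 (log2(CPM + 0.5)). Both libraries labelled knockout thus bracket the controls, and all 4 are below the IFE sums of 3886 to 5134 CPM.

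Beside this spread, L95 and L97 had 16829286 and 15743340 reads in genes. The 9 bulge stem cell markers summed to 31240 and 26020 CPM in L95 and L97, and to 42870 and 41940 CPM in L136 and L94. The 8 hair matrix markers found, of a fast-dividing neighbour tissue, summed to 203 and 208 CPM in L95 and L97 and to 155 and 145 CPM in the controls. The interfollicular epidermis markers summed to 2288 and 2171 CPM in L95 and L97, and to 2639 and 2566 CPM in the controls. Sbsn made up most of that sum, at 1872 to 2289 CPM in HFSC, but had only 64.5 to 159 CPM in IFE. The sum is therefore no measure of epidermal cells in HFSC. The leukocyte markers summed to 30.4 and 51.0 CPM in L95 and L97 and to 64.9 and 45.3 CPM in the controls, with Ptprc and Cd207 at 0 in all 12 libraries. The 7 inner root sheath markers summed to 437 and 549.4 CPM in L95 and L97, and to 606.6 and 471.4 CPM in L136 and L94. Of these, Krt25, Krt28 and Krt71 were high in L97 and L136 and low in L95 and L94, as most mitosis members were. Krt27, Krt73, Tchh and Gata3 of the same list did not share this order. Krt27 had 4.66 and 9.05 CPM in L95 and L97, and 2.74 and 1.78 CPM in L136 and L94. Krt73 had 9.69 and 17.28 CPM in L95 and L97, and 1.86 and 4.48 CPM in L136 and L94. Tchh had 12.15 and 14.85 CPM in L95 and L97, and 17.97 and 16.32 CPM in L136 and L94. Gata3 had 402.1 and 441.2 CPM in L95 and L97, and 528.9 and 441.7 CPM in L136 and L94. Krt25 had 1.04 and 25.6 CPM in L95 and L97, and 16.8 and 2.83 CPM in L136 and L94. Krt28 had 1.10 and 15.6 CPM in L95 and L97, and 18.3 and 2.17 CPM in L136 and L94, and Krt71 had 6.26 and 25.8 CPM in L95 and L97, and 20 and 2.17 CPM in L136 and L94. Of the hair matrix markers, Hoxc13 held the largest part of the sum in L95, at 96.5 CPM, while Krt35 and Shh had 4.24 and 2.37 CPM in L97 and 0 in the other 3. L97 was also highest for Lef1, at 25.3 CPM, but not for Msx1, Msx2, Hoxc13, Foxn1 or Dlx3. Msx1 had 5.03 and 4.18 CPM in L95 and L97, and 17.35 and 10.01 CPM in L136 and L94. The part of these cell types in the spread was not tested.

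**Figure D4:**
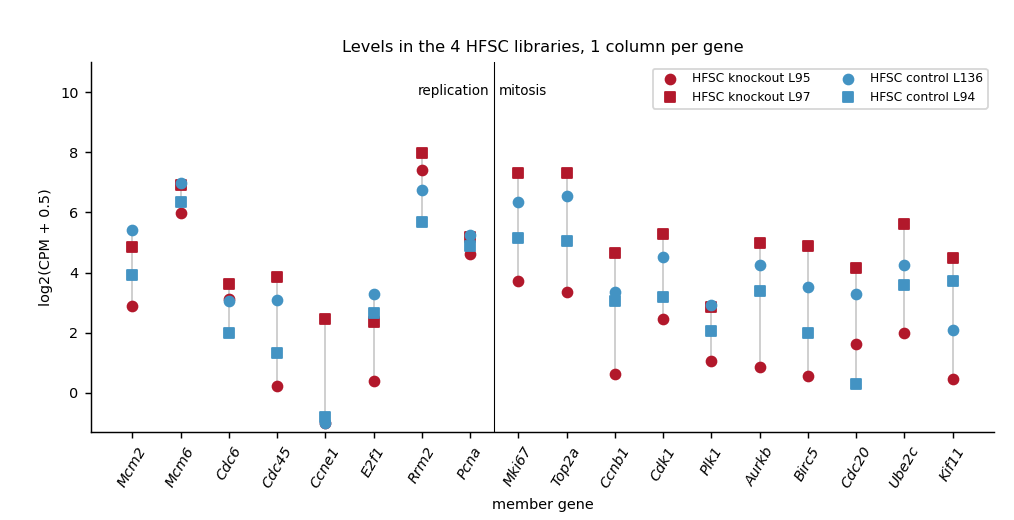
Levels of 18 members in the 4 HFSC libraries as log2(CPM + 0.5), 1 column per gene with a grey line over its range. For the mitosis genes L95 is mostly lowest and L97 mostly highest, with Mki67 at 12.7 and 159 CPM, and both controls lie between them for most.

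Knockout and control were then compared within each cell type. No member was called in HFSC, ORS or IFE, where 0.00656%, 0% and 0.157% of all genes were called. At an unadjusted p under 0.05 there were 2 members in HFSC, 0 in ORS and 2 in IFE, beside 620, 720 and 1470 of all 15251 genes. In HFSC the median log2 fold change of labelled knockout over control was -0.16 over the mitosis members and -0.04 over the replication members, against 0.00 over all genes. These medians followed single libraries: the mitosis median was 1.46 without L95, -1.63 without L97, 0.47 without L136 and -0.51 without L94. In ORS the medians were 0.12 over mitosis and -0.15 over replication members, against -0.02 over all genes. In IFE they were 0.09 over mitosis and 0.18 over replication members, against -0.01 over all genes.

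Rrm2 had the smallest p of the members in HFSC, with its values given above. Both libraries labelled knockout lay above both controls, and the log2 fold change was 1.48 (SE 0.30, unadjusted p = 0.000357, adjusted p = 0.202). Without control L136 it was 2.01 with adjusted p = 0.0435, and Bub1b was called there too, on a lone control library of 0.263 CPM. Anln had 13.1 and 38.6 CPM in HFSC labelled knockout and 10.6 and 5.33 CPM in HFSC controls (log2 fold change 1.52, SE 0.48, adjusted p = 0.731). Cdc6 also lay above both controls, and E2f1 below both (-1.61, SE 0.83, adjusted p = 1). In all, 3 members lay above and 1 below both controls in HFSC, that is 4 of 53, beside 18.6% of all genes above and 17.2% below.

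In IFE, 16 members lay above both controls and 3 below, beside 12.9% of all genes above and 16.3% below. Cdc45 had the highest fitted value, 2.62 (SE 1.17, unadjusted p = 0.0457, adjusted p = 0.5), with 43.2 and 52.9 CPM in knockouts against 24.5 and 1.96 CPM in controls that differed widely. Mcm10 had the lowest fitted value, with 1.43 and 3.91 CPM in knockouts against 22.7 and 10.4 CPM in controls (log2 fold change -2.45, SE 1.04, adjusted p = 0.462). Of the 8 helicase loading members, 7 had a fitted value above 0 and 5 lay above both controls, with a median of 0.51. Mcm5 had 212 and 160.3 CPM in IFE knockouts and 106 and 143 CPM in IFE controls, and Mcm4 had 252 and 209 CPM in knockouts and 152 and 159 CPM in controls. Bub1 had 90.3 and 49.8 CPM in IFE knockouts and 49.3 and 20.1 CPM in IFE controls, a narrow gap on the lower side. Cenpe went the other way, with 71.7 and 134 CPM in IFE knockouts and 163 and 263 CPM in IFE controls (-1.07, SE 0.88, adjusted p = 0.767). Mcm5 and Mcm4 stand here for the loading list and were chosen after their values were seen.

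In ORS, 8 members lay above both controls and 8 below, beside 14% of all genes above and 16.2% below. Cenpf had 645 and 568 CPM in ORS knockouts and 430 and 404 CPM in ORS controls (0.54, SE 0.49, adjusted p = 1). Ccne2 had 121 and 87.2 CPM in ORS knockouts and 73.6 and 50.8 CPM in ORS controls (0.74, SE 0.51, adjusted p = 1). Mcm2 had 138.5 and 198 CPM in ORS knockouts and 218 and 281 CPM in ORS controls (-0.58, SE 0.61, adjusted p = 1), whereas in IFE its knockouts lay above the controls. Prim1, the primase subunit, had 136.4 and 163 CPM in ORS knockouts and 239.8 and 169 CPM in ORS controls. Egfr messenger RNA was 3.72 CPM in ORS knockout E358 and 55.2 CPM in E359, and the mitosis mean of those 2 libraries differed by 0.12 on the log2 scale, with E358 higher. The replication mean was 6.52 in E358 and 6.85 in E359, so there E359 was higher. Without ORS control E341, the male library, the ORS comparison is all female but rests on a lone control library, E344. The medians were then 0.17 over mitosis and -0.14 over replication members. With all libraries 0% of all genes were called in ORS, so a count of calls cannot decide whether sex matters there.

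**Figure D5:**
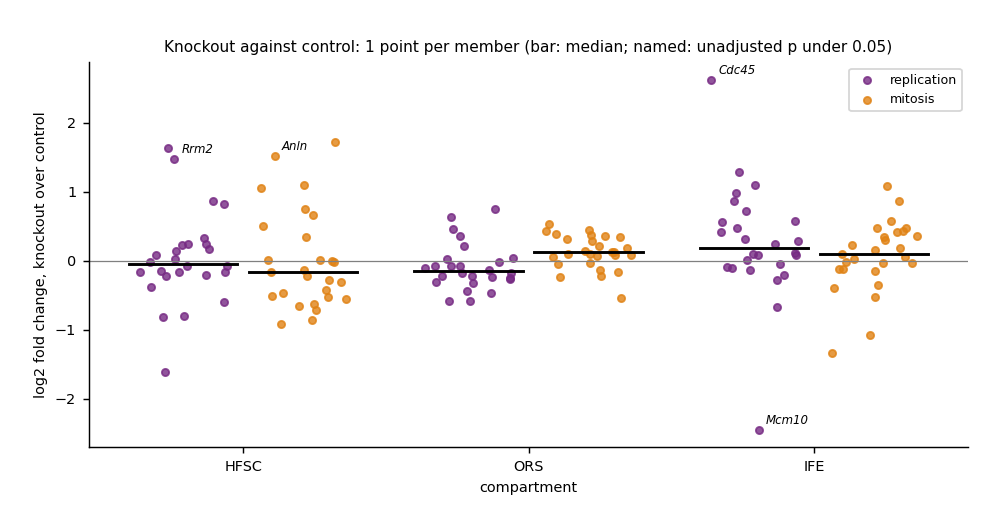
Log2 fold change of knockout over control for each of the 53 members in HFSC, ORS and IFE, split into replication and mitosis, with bars at the medians. The medians lie between -0.16 and 0.18, and the 4 named genes have an unadjusted p under 0.05 but none an adjusted one.

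The knockout effects were also compared between cell types, and no member was called in any of the 3 differences. Of all genes 0% were called in ORS minus IFE, 0% in HFSC minus IFE and 0% in HFSC minus ORS. At an unadjusted p under 0.05 there were 0, 4 and 2 members in these differences, beside 1036, 1110 and 682 of all genes. With 2 libraries a group and this spread the intervals are wide: for Mki67 the 95% interval of labelled knockout over control in HFSC was -1.98 to 1.55. In ORS it was -1.47 to 2.05 and in IFE -2.12 to 1.41. All 3 intervals rest on 1 spread shared by the 6 groups, so none measures the spread within its own cell type alone.

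Genes of the same pathways outside the 53 were counted in the same way. Of 63 other mitosis genes, 61 were lower in HFSC than in ORS and 59 lower in HFSC than in IFE. Of 44 other replication genes, 40 were lower in HFSC than in ORS and 32 lower in HFSC than in IFE. Among all genes these shares were 14.4% against ORS and 16.1% against IFE. Gmnn, the inhibitor of CDT1, had 7.61 and 20.8 CPM in HFSC labelled knockout and 13.5 and 2.90 CPM in HFSC controls, against 117 to 142 CPM over ORS and 119 to 144 CPM over IFE. In ORS against IFE, 6 of the 63 were higher and 1 lower, the lower gene being Zwint, a kinetochore protein (-1.07, adjusted p = 0.00136), and 4 of the 44 were higher. The shares called higher, 9.52% and 9.09%, lie below the 10.6% of all genes. Among 24 regulators of the E2F and MuvB systems, 1 was higher and 11 lower in HFSC than in ORS, and 2 were higher and 9 lower in HFSC than in IFE. Foxm1, the activator of mitotic genes, had 0.0613 and 9.42 CPM in HFSC labelled knockout and 1.59 and 0.461 CPM in HFSC controls. It had 60.6 and 74.4 CPM in ORS knockouts and 64.7 and 37.2 CPM in ORS controls, and 43.0 and 91.7 CPM in IFE knockouts against 27.9 and 92.8 CPM in IFE controls. L97 again stood highest of the HFSC libraries. Its log2 fold change was -4.98 in HFSC against ORS (SE 0.76, adjusted p = 0.000429). E2f7, a repressor of the E2F family, had a log2 fold change of -5.01 (adjusted p = 0.000123), and Rbl2, the pocket protein p130 of resting cells, was higher by 0.97. None of these lists had a gene called in a knockout comparison.

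Overlap with other genes limits some values. Of the 53 members, 13 overlap another listed gene, 12 of them on the other strand, among them Mcm7 with Cops6, Cdc45 with Ufd1l, Ube2c with Tnnc2 and Kif20a with Cdc23. Whether reads were counted by strand is not given in the sources used here, so reads of such pairs cannot be told apart.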

How the data were processed

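RNA of 12 mouse skin libraries was sequenced as 150 bp paired reads. The deposited values are log2 reads per 1000000 of the library total, made by the authors, as the values show: whole reads were recovered within 0.2 read, with 0 reads entered as 0.9. Tools listed per the submitters' processing notes include Trim Galore, and the build is mm10. The counting tool is not given in the sources used here. Recovered reads were divided by reads in genes and TMM factors. The filter kept 15251 genes that had 15 reads in all and, in 2 or more libraries, a level worth 10 reads in a library of median size. The main test was limma 3.58.1 (R 4.3.3, statmod 1.5.0; trend, robust) on log2(CPM + 0.5), with 6 groups in 1 fit, 6 residual degrees of freedom and Benjamini-Hochberg adjustment over all genes, called at 0.05. The scripts were tested on simulated data. Every member was described by counts, and named genes were a fixed core, in each knockout comparison the 6 largest changes in each direction among members whose groups did not overlap, the 6 largest called between cell types, and the 4 largest called of each other list. Members and lists were chosen with earlier results of these data known. Alternatives were another pseudocount (2), other filters, scalings and tools, separate fits, a replicate block and leaving out each library. Shared library numbers correlated weakly and were not taken as pairs. With 2 libraries a group, deviations from the group mean mirror each other, so this correlation cannot decide whether shared numbers mark 1 animal. Sequences are from RefSeq.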

Additional observations from a re-analysis of the deposited data

How the results depend on the processing

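Members called in IFE and ORS knockout comparisons, and in the 3 differences between cell types, stayed at 0 under every alternative run. In HFSC the count was 0 to 2 when each library was left out, with 2 without control L136. Members called lower numbered 43 to 50 in HFSC against IFE and 49 to 53 in HFSC against ORS over all alternatives. The count of 7 in ORS against IFE moved to 45 on the deposited scale, beside 8372 of 15251 genes called in either direction. It moved to 18 with limma-voom, beside 3046 genes, and to 18 with separate fits, beside 2279 of 14449 genes. It was 0 in knockout libraries alone, an alternative chosen after seeing the data, and 2 to 8 when each library was left out. Beyond the shift of all genes on the deposited scale and the fewer libraries left, the cause was not tested. With the replicate block, ORS against IFE had 7 calls (random) or 9 (fixed), beside 3253 and 1509 genes called. The shared numbers gave no correlation above 0.102. Anln in ORS against IFE was -0.06 without a call and 0.90 (adjusted p = 0.0346) on the deposited scale; no other member with a call on either side changed direction. Totals of 11412781 to 27666954 reads in genes per library limit what low members such as Nek2 and Ccne1 show in HFSC.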

Other observations

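Genes tied to resting cells moved in both directions. Of 15 listed, 9 were higher and 2 lower in HFSC than in ORS, beside 14.3% of all genes higher and 14.4% lower. Of the 15, 6 were higher and 5 lower in HFSC than in IFE, beside 19.9% of all genes higher and 16.1% lower. Klf9, a transcription factor, had log2 fold changes of 3.5 in HFSC against ORS (SE 0.35) and 2.77 in HFSC against IFE (SE 0.35). Cdkn1b, the CDK inhibitor p27, was 1.12 against ORS (SE 0.18) and 1.75 against IFE (SE 0.18). Cdkn2c, another CDK inhibitor, was -2.18 against ORS (SE 0.40) and -1.80 against IFE (SE 0.40). Cdkn1a, the inhibitor p21, was 0.99 in HFSC against ORS but -1.47 in HFSC against IFE and -2.46 in ORS against IFE (SE 0.19 each). All of these had an adjusted p under 0.05 in limma over all genes, and none of the 15 was called in a knockout comparison.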
